A study of Sus scrofa with 16 samples.

Results

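Cytokines, chemokines and their receptors were examined in cultured satellite cells (SCs), the muscle stem cells that lie beside the muscle fibre, from piglets with and without dystrophin. The members were taken by gene name: all rows of the count table named as a numbered interleukin (IL), CC or CXC chemokine (CCL, CXCL), chemokine receptor (CCR, CXCR) or colony-stimulating factor (CSF), or with a name starting in TNF, together with AMCF-II, a pig CXC chemokine. The rule found 81 of 3875 genes and used no measured value. They are 24 chemokines, 9 chemokine receptors, 20 interleukins, 13 interleukin receptors, 3 colony-stimulating factors, 5 ligands and 3 receptors of the TNF superfamily and 4 TNF-induced proteins. Names outside the pattern, such as LIF, MIF, KITLG, CD70 and FAS, were followed as a separate list.

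The SCs came from the intercostalis muscle, a muscle of respiration, of 4 wild-type (WT) and 4 DMD piglets killed at 3 days of age. All were male. The DMD pig is a model of Duchenne muscular dystrophy that carries a deletion of exon 52 of DMD, the gene of dystrophin. All SCs were enriched with magnetic beads, which removed CD31+ endothelial and CD45+ blood cells and then kept cells with integrin-β1, NCAM1 and M-cadherin, and all were grown to passage 6. Each animal gave 1 library of proliferating cells (PROL), kept in growth medium with fetal bovine serum and bFGF, and 1 of differentiating cells (DIFF), kept in low-serum medium with horse serum. The RNA methods give 10 days of differentiation and the culture methods 7 days. The 16 libraries thus form WT PROL, WT DIFF, DMD PROL and DMD DIFF with 4 animals each, and the same 4 animals of a genotype stand behind its PROL and its DIFF libraries. They are cells in culture, without immune cells added, so the values describe transcripts of these cultures and not of dystrophic muscle.

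Chemokines are small secreted proteins that attract leukocytes through receptors on the leukocyte surface, and interleukins, colony-stimulating factors and TNF ligands carry signals between immune and tissue cells. In injured muscle, SCs and other resident cells release chemokines that draw neutrophils, monocytes and macrophages, whose products in turn act on SCs while these divide, fuse and repair the fibre. Interleukin receptors mostly signal through JAK kinases and STAT factors, and receptors for TNF and IL1 through NF-kB, which drives transcription of many chemokine genes.

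Summed over both technical duplicates, the libraries of WT held 1110050 to 1657300 counts (PROL) and 1572180 to 1762968 (DIFF), and those of DMD 1477772 to 1664700 (PROL) and 1434476 to 1781174 (DIFF). Values are given as CPM, counts scaled to a common library size with TMM factors, in the order of replicates 1 to 4, and means are ± SD with n = 4 animals. Counts of the DMD transcript itself were 6 in each WT PROL library and 24 to 32 in the DMD PROL libraries, and 12 to 22 in WT DIFF and 30 to 48 in DMD DIFF, so the gene carrying the mutation was higher, not lower, in the mutant cells. Where its reads lie on the gene was not examined, and they do not check the genotype. The ribosomal RNA row RN18S took 6.32 to 20.4% of a library, with the highest share in DMD PROL replicate 4. In bulk RNA, fewer cells of a type and less RNA per cell cannot be told apart.

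Markers set the cultures apart as well. The summed level of 10 counted myogenic markers ran from 3288 to 5247 CPM (PROL) and 6116 to 7848 (DIFF) in WT and from 10495.9 to 14438 (PROL) and 25189.7 to 27505 (DIFF) in DMD, and MYF5, a defining factor of SCs, had no count in the 8 WT libraries. Most of the WT PROL sum was ITGB1, the gene of integrin-β1, at 4188 ± 828 CPM against 5121 ± 734 in DMD PROL. In DIFF it held 3440 ± 272 CPM in WT and 7753 ± 671 in DMD. The muscle genes DES and MYLPF stood at 70.9 ± 9.98 and 112 ± 33.6 CPM in WT PROL. In DMD PROL they stood at 1169 ± 204 and 3509 ± 858 CPM. PAX7, NCAM1 and CDH15 were not analysed here. The sum of 8 counted fibroblast markers moved the other way between genotypes, with 8513 to 10319 CPM in WT PROL against 4236 to 4705 in DMD PROL and 22659 to 25771 in WT DIFF against 10424 to 13558 in DMD DIFF. Most of the DMD DIFF sum was COL1A2, at 9100 ± 1122 CPM against 7909 ± 692 CPM in WT DIFF. The 5 counted endothelial markers summed to 146 to 163 CPM (PROL) and 78.4 to 122 (DIFF) in WT against 16.0 to 34.1 (PROL) and 33.8 to 50.4 (DIFF) in DMD. The 17 counted leukocyte markers reached 50.8 to 95.6 CPM (PROL) and 61.2 to 75.7 (DIFF) in WT and 34.4 to 55.9 (PROL) and 30.8 to 41.3 (DIFF) in DMD, with CD3E, CD2, CD8A and FCER1G at 0 and the general leukocyte gene PTPRC not counted. Fibroblasts, endothelial cells and leukocytes are known sources of several of the genes below, and the part of these markers' differences in the results was not tested.

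Of the 81 members, 21 (25.9%) were expressed, with 10 or more counts in at least 4 of 16 libraries, against 2052 (53.0%) of all genes by the same measure. They are 9 chemokines (CCL2, CCL5, CCL11, CCL19, AMCF-II, CXCL2, IL8, CXCL12 and CXCL14), 2 interleukins (IL18 and IL33), CSF1, 4 interleukin receptors (IL6ST, IL1R2, IL13RA1 and IL27RA), 2 TNF ligands (TNFSF10 and TNFSF13B), 2 TNF receptors (TNFRSF1A and TNFRSF12A) and TNFAIP8. None of the 9 chemokine receptors was among them. The other 60 members held 420 of the 73204 counts of all members, and 21 of these had no count in any library. Among the 21 are TNF itself, IL10, IL2, IL4, IL21, IL1B1, IL1B2, CSF3, CXCL9, CCL20, CCR2 and CXCR4. A count of 0 in the 24407954 counts of all libraries allows a level of up to 0.123 CPM, a limit that covers counting error alone.

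Together the members made up 3293 to 6534 CPM, unscaled, of a WT PROL library, 1859 to 2615 of a DMD PROL library, 2011 to 3099 of a WT DIFF library and 2351 to 2697 of a DMD DIFF library. Every WT PROL library was thus above every library of the other groups. Most of the WT PROL counts of members were CCL2 (9594 counts) and AMCF-II (7426 counts), so this order follows these genes more than the members as a set.

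Which of these genes differ between dystrophin-deficient and WT SCs was asked in each state. Calls needed an edgeR quasi-likelihood p under 0.05, adjusted by Benjamini-Hochberg over all genes tested, together with a log2 fold change (log2FC) beyond 0.6 in either direction, and each log2FC is given ± its SE. In PROL, 17 expressed members passed the filter on low counts and 10 were called in DMD against WT, 2 higher and 8 lower, where 18.2% of all 1914 genes tested were called (8.36% higher and 9.87% lower). Their median log2 fold change was -1.13, against -0.00 over all genes. In DIFF, 14 of 17 were called, 4 higher and 10 lower, against 33.6% of 1916 genes (16.1% higher and 17.5% lower), and the median was -1.23 against -0.03. The 4 libraries of one genotype lay entirely beyond those of the other for 12 of the 17 in PROL (30% of all genes) and 13 of the 17 in DIFF (45.3% of all genes).

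How the members change as the cells differentiate was asked within each genotype. In WT, 14 of 19 tested members were called in DIFF against PROL, 7 higher and 7 lower, against 32.2% of all genes (17.9% higher and 14.3% lower). In DMD, 8 of 14 were called, 4 higher and 4 lower, against 28.4% (16.0% higher and 12.4% lower). Medians were -0.69 in WT and 0.00 in DMD, against 0.03 and 0.01 over all genes. Non-overlapping libraries were seen for 14 of 19 members in WT (43.1% of all genes) and 8 of 14 in DMD (40.6%). The difference between the genotypes in this change, the interaction of genotype and state, was called for 11 of 21 members, 5 positive and 6 negative, against 23.4% of all genes (10.5% positive and 13.0% negative). Each group of libraries enters several of these comparisons, so they share samples.

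Some members entered a comparison through 1 group alone and had to differ there. These are IL1R2 in PROL, CCL19, TNFSF13B, TNFSF10 and CXCL12 in DIFF, CCL19, TNFSF13B, TNFSF10 and IL1R2 between the WT states, and CSF1 and IL8 between the DMD states. Without such genes, 9 of 16 members were called in PROL (2 higher and 7 lower, against 16.9% of all genes), 10 of 13 in DIFF (4 higher and 6 lower, against 31.7%), 10 of 15 between the WT states (4 higher and 6 lower, against 30.8%) and 6 of 12 between the DMD states (4 higher and 2 lower, against 27.6%). The interaction was not recounted in this way. Its called members include TNFSF10 and IL1R2, which reached 10 counts in the 4 libraries of 1 group alone. How far such members raise its share of called members was not tested. Scaling by library totals in place of TMM moved the median log2 fold change of all genes from -0.00 to -0.15 in PROL, from -0.03 to 0.10 in DIFF, from 0.03 to -0.32 between the WT states and from -0.04 to 0.25 in the interaction. All-gene calls, higher and lower, then changed from 160 and 189 to 122 and 264 in PROL, from 308 and 335 to 387 and 267 in DIFF, from 343 and 275 to 194 and 564 between the WT states and from 213 and 263 to 387 and 134 in the interaction. The members' calls became 2 higher and 10 lower in PROL, 4 and 9 in DIFF, 6 and 9 between the WT states and 7 and 4 in the interaction.

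**Figure D1:**
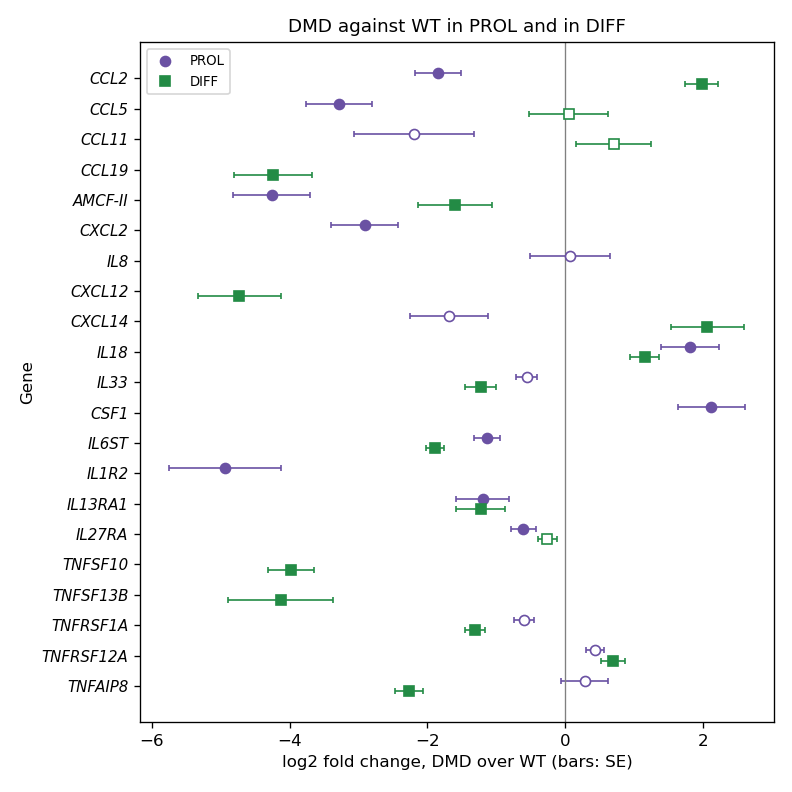
Log2 fold change of DMD over WT (x axis, bars are the SE) of each expressed member (y axis) in PROL (circles) and DIFF (squares), with filled symbols for called genes and no symbol where a gene was not tested. CCL2 lies on opposite sides of 0 in both states, at -1.85 in PROL and 1.98 in DIFF.

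CCL2, the main attractant of monocytes, was lower in DMD than in WT SCs while they proliferated and higher once they differentiated. WT PROL libraries held 2369, 943, 1646 and 1376 CPM and DMD PROL libraries 354, 429.8, 347 and 631 CPM. In DIFF the values were 293, 202, 176 and 155 CPM in WT and 1038, 659.9, 648 and 940.4 CPM in DMD. The libraries of both genotypes did not overlap in either state, and their order was turned around. DMD against WT gave a log2FC of -1.85 ± 0.33 (adjusted p = 0.00717) in PROL and of 1.98 ± 0.24 (adjusted p = 0.000113) in DIFF. CCL2 fell in each of 4 WT animals, by 4.67- to 9.35-fold, and was higher in DIFF in each of 4 DMD animals, by 1.49- to 2.93-fold. The change was a log2FC of -2.95 ± 0.34 (adjusted p = 0.000318) in WT and a log2FC of 0.89 ± 0.25 (adjusted p = 0.0219) in DMD, and the interaction was 3.84 ± 0.44 on the log2 scale (adjusted p = 2.33e-05). The rise in DMD was lost in 3 of 8 fits that left out 1 library: without DMD PROL replicate 1 (0.80, adjusted p = 0.0607) or 2 (0.88, adjusted p = 0.0591) and without DMD DIFF replicate 1 (0.74, adjusted p = 0.0515). These fits did not pair the states of an animal. With the animal as a block, which pairs them, the rise in DMD was 0.90 ± 0.15 on the log2 scale (adjusted p = 0.00102 by edgeR), a call. CCL2 was the 1 member called in opposite directions in both genotype comparisons.

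CXCL14, a chemokine of epithelia and fibroblasts that acts on monocytes and dendritic cells, was highest in differentiating DMD SCs. DMD DIFF libraries held 441, 647, 999 and 827 CPM, and WT DIFF libraries 241, 39.8, 216 and 197 CPM. In PROL the values were 393, 104, 299 and 138 CPM in WT and 48.0, 63.2, 134 and 44.6 CPM in DMD, and DMD replicate 3 overlapped the WT libraries. All 4 DMD DIFF libraries stood above the 12 others. In DIFF, DMD exceeded WT with a log2FC of 2.06 ± 0.53 (adjusted p = 0.0185). From PROL to DIFF it rose with a log2FC of 3.31 ± 0.45 (adjusted p = 0.00115) in DMD, 7.46- to 18.5-fold by animal, and its change in WT was a log2FC of -0.44 ± 0.64 (adjusted p = 0.623). The interaction was 3.75 ± 0.80 on the log2 scale (adjusted p = 0.00338). In PROL the difference of -1.69 ± 0.57 (adjusted p = 0.0728) missed the threshold, and it passed without WT replicate 2 (-1.93, adjusted p = 0.0452) or DMD replicate 3 (-2.17, adjusted p = 0.0415).

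Of the expressed CXC chemokines that attract neutrophils, AMCF-II and CXCL2 were lower in DMD PROL than in WT PROL, and IL8 was not called there. AMCF-II, named for alveolar macrophage chemotactic factor, held 1631, 691, 1601 and 863 CPM in WT PROL and 43.1, 35.4, 129 and 42.0 CPM in DMD PROL. No DMD library came near the lowest WT library. The log2FC was -4.26 ± 0.56 (adjusted p = 0.00198), and -4.90 without DMD replicate 3, the highest of its group. In DIFF, WT libraries held 998, 381, 415 and 309 CPM and DMD libraries 307, 125, 92.1 and 174 CPM. There the genotypes lay close, since DMD replicate 1 and WT replicate 4 almost met. The difference of -1.60 ± 0.54 (adjusted p = 0.0483) was called in only 1 of 8 fits with a library left out, where adjusted p reached 0.115, and not without the RN18S row (adjusted p = 0.0503). AMCF-II was lower in DIFF in each of 4 WT animals, by 1.64- to 3.86-fold, which gave a log2FC of -1.20 ± 0.49 (adjusted p = 0.0884) without and -1.26 (adjusted p = 0.0036) with the animal as a block (a call). It was also called with DESeq2 (-1.23, adjusted p = 0.0267), on library totals (-1.55, adjusted p = 0.0349) and without WT DIFF replicate 1 (-1.72, adjusted p = 0.00901). In DMD it was higher in DIFF in 3 of 4 animals, with a log2FC of 1.46 ± 0.57 (adjusted p = 0.0853). The interaction was 2.65 ± 0.77 on the log2 scale (adjusted p = 0.0197), and 3.30 without DMD PROL replicate 3.

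CXCL2, another ligand of the neutrophil receptor CXCR2, was also low in DMD PROL, at 2.46, 3.79, 8.15 and 5.25 CPM against 59.7, 21.1, 53.2 and 15.4 CPM in WT PROL. Its libraries did not overlap, with a log2FC of -2.91 ± 0.49 (adjusted p = 0.000498). WT DIFF held 11.0, 13.3, 6.47 and 2.72 CPM and DMD DIFF 2.80, 2.33, 2.88 and 2.85 CPM. There the genotypes overlapped, and CXCL2, which did not pass the filter on low counts, gave a log2FC of -1.59 (adjusted p = 0.0715) without it. It fell in all 4 WT animals, with a log2FC of -2.18 ± 0.52 (adjusted p = 0.00467). The interaction of 1.31 ± 0.81 on the log2 scale (adjusted p = 0.248) missed the threshold.

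IL8, the neutrophil chemokine now named CXCL8, overlapped between the genotypes in PROL. Its values were 37.8, 4.96, 30.4 and 16.9 CPM in WT and 8.61, 19.0, 40.8 and 26.2 CPM in DMD, with a log2FC of 0.07 ± 0.58 (adjusted p = 0.952). In DIFF the gene was at 2 counts in all WT libraries together and 16 in all DMD libraries. This gave a ratio of 8.58 of DMD to WT, with a 95% interval of 2.02 to 76.9 from counting error alone. The deposited values are all even, and with halved counts the interval was 1.15 to 381. IL8 did not pass the filter on low counts in DIFF. Without that filter edgeR gave a log2FC of 2.71 ± 1.43 (adjusted p = 0.15), so the genotype difference was not called there. IL8 was lower in DIFF than in PROL in all 8 animals, 84.4-fold over the summed WT counts (22.9 to 704 from counting error, or 14.7 to 3381 with halved counts) and at least 42.2-fold (21.1-fold with halved counts) without WT DIFF replicate 1, which held both WT DIFF counts. In DMD the change came with a log2FC of -3.11 ± 0.52 (adjusted p = 0.000122). Between the DMD states IL8 passed the filter on low counts through DMD PROL alone, so it had to be lower in DIFF. The interaction of 2.64 ± 1.27 on the log2 scale (adjusted p = 0.131) missed the threshold and became 2.83 (adjusted p = 0.0497) with the animal as a block. In the RefSeq gene table of Sscrofa11.1, CXCL8, AMCF-II and CXCL2 lie close to each other on 1 chromosome. How the counting divided reads between such related genes is not given in the sources used here, so the split among them is uncertain.

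CCL5, an attractant of T cells and monocytes, followed CCL2 in PROL and not in DIFF. It held 32.02, 21.1, 54.3 and 52.3 CPM in WT PROL and 2.46, 3.79, 1.16 and 9.19 CPM in DMD PROL, without overlap. The difference was a log2FC of -3.28 ± 0.48 (adjusted p = 0.000134), and -3.99 without DMD replicate 4. WT DIFF held 11.0, 2.95, 7.76 and 5.44 CPM and DMD DIFF 14.0, 5.83, 1.44 and 7.11 CPM, fully overlapping, with a log2FC of 0.05 ± 0.57 (adjusted p = 0.952). In WT it fell in each animal, 2.91- to 9.61-fold, with a log2FC of -2.55 ± 0.40 (adjusted p = 9.36e-05). The interaction was 3.32 ± 0.80 on the log2 scale (adjusted p = 0.0029), and 4.04 without DMD PROL replicate 4. CCL11, an eosinophil attractant encoded near CCL2, was the 1 expressed member called in no comparison. Its mean was 27.2 ± 11.0 CPM in WT PROL, 13.5 ± 12.6 CPM in WT DIFF, 5.94 ± 7.17 CPM in DMD PROL and 22.0 ± 7.05 CPM in DMD DIFF. WT DIFF replicate 1 held 31.6 CPM and the other 3 WT DIFF libraries 2.59 to 10.3, and 2 of 4 DMD PROL libraries were at 0. In PROL it gave a log2FC of -2.20 ± 0.87 (adjusted p = 0.0969), and -3.07 (adjusted p = 0.0431) without DMD replicate 4, while DIFF gave a log2FC of 0.70 ± 0.54 (adjusted p = 0.31), and 1.56 (adjusted p = 0.0129) without WT replicate 1.

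CCL19 and CXCL12, chemokines that guide lymphocytes and stem cells and are typical of stromal cells, rose with differentiation in WT SCs. CCL19 held 52.3, 38.3, 32.3 and 58.5 CPM in WT DIFF, and 4.20, 4.66, 0 and 0 CPM in DMD DIFF. It reached 10 counts in the 4 WT DIFF libraries alone, so the rule for expressed members fixed its place there. Both PROL groups were near 0, with 1.46, 0, 3.26 and 1.54 CPM in WT and 0, 1.26, 0 and 0 CPM in DMD. Between the WT states it rose with a log2FC of 4.72 ± 0.47 (adjusted p = 9.58e-07), and by 5.44 without WT PROL replicate 3. DMD against WT in DIFF was a log2FC of -4.24 ± 0.56 (adjusted p = 1.68e-05), and -4.92 without DMD DIFF replicate 2. The interaction of -2.13 ± 2.10 on the log2 scale (adjusted p = 0.493) rests on 2 counts in DMD PROL.

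CXCL12 held 24.8, 51.5, 36.2 and 72.1 CPM in WT DIFF and 0, 3.50, 2.88 and 0 CPM in DMD DIFF. In DIFF it passed the filter on low counts through WT DIFF alone, so it had to be lower in DMD there. PROL levels were 2.91, 7.45, 10.9 and 6.15 CPM in WT and 4.92, 2.53, 3.49 and 3.94 CPM in DMD. Every WT animal had more CXCL12 in DIFF than in PROL, 3.33- to 11.7-fold, and 1 of 4 DMD animals did. The WT states gave a log2FC of 2.68 ± 0.40 (adjusted p = 6.21e-05), the genotypes in DIFF a log2FC of -4.73 ± 0.60 (adjusted p = 1.3e-05) (-5.49 without DMD DIFF replicate 2) and the interaction -3.83 ± 0.85 on the log2 scale (adjusted p = 0.00142) (-4.58 without that library).

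**Figure D2:**
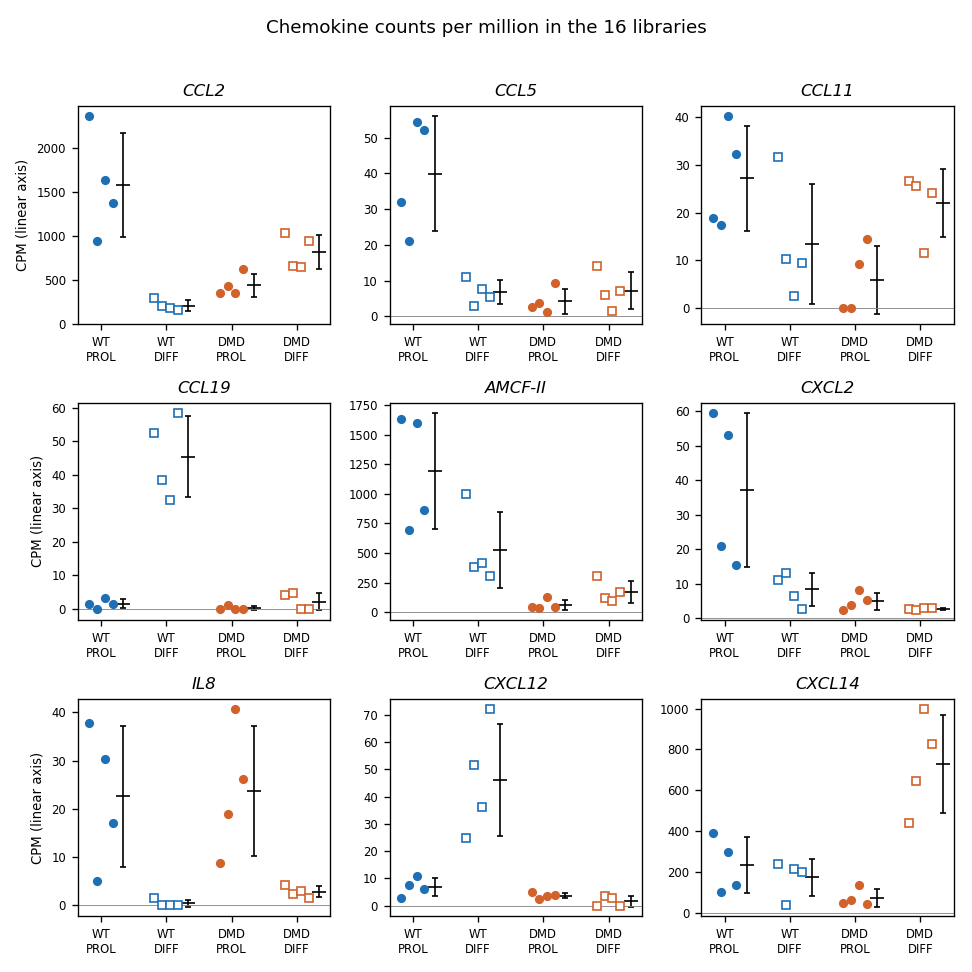
CPM (y axes, linear) of the 9 expressed chemokines in the 4 groups (x axes), with 1 point per animal in the order of replicates 1 to 4, filled circles for PROL and open squares for DIFF, and the mean ± SD beside them. CCL2, AMCF-II, CCL5 and CXCL2 are highest in WT PROL, CCL19 and CXCL12 in WT DIFF, and CXCL14 in DMD DIFF.

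The receptors of these chemokines were near or below detection. Over all 16 libraries, CCR2, the receptor of CCL2, and CXCR4, the receptor of CXCL12, had no count. CCR7, the receptor of CCL19, had 14, CCR1, a receptor of CCL5, had 6, and CCR3, the receptor of CCL11, had 2. All 9 chemokine receptors together held 36 counts. CXCR1 and CXCR2, the receptors of IL8, are not analysed here. Without the filter on low counts none of them was called in any comparison by edgeR, and 1 value, that of CCR7 between the DMD states (a log2FC of -4.29, adjusted p = 0.0902, unadjusted p = 0.0284), had an unadjusted p under 0.05, so at this depth differences in chemokine receptors were not detectable.

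Both expressed interleukins belong to the IL1 family of alarm signals, and they moved in opposite directions with genotype. IL18, which needs cleavage by caspase-1 to become active, held 763, 669.9, 996 and 396 CPM in DMD PROL and 141, 110.4, 311 and 235 CPM in WT PROL. DMD DIFF held 295, 267, 338 and 212 CPM and WT DIFF 121, 75.1, 160.4 and 142 CPM. DMD libraries lay above the WT libraries in both states, and DMD PROL replicate 3 was the highest of all. IL18 was higher in DMD with a log2FC of 1.81 ± 0.42 (adjusted p = 0.0211) in PROL and with a log2FC of 1.15 ± 0.21 (adjusted p = 0.000612) in DIFF. The PROL call was lost by a small margin without WT replicate 1 (1.67, adjusted p = 0.0519). It was lower in DIFF than in PROL in all 8 animals, 1.87- to 2.94-fold in DMD and 1.17- to 1.94-fold in WT. This gave a log2FC of -1.36 ± 0.29 (adjusted p = 0.00878) in DMD and a log2FC of -0.69 ± 0.36 (adjusted p = 0.156) in WT, where the animal as a block gave -0.65 (adjusted p = 9.49e-04) and a call, as did DESeq2 (-0.72, adjusted p = 0.0334), library totals (-1.04, adjusted p = 0.0497) and the second technical column (-0.87, adjusted p = 0.0353). The interaction was -0.67 ± 0.50 on the log2 scale (adjusted p = 0.356) without and -0.66 (adjusted p = 0.00579) with the block.

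IL33, a nuclear alarm signal released from damaged cells, fell with differentiation in both genotypes. PROL libraries held 298, 293, 430.2 and 295 CPM in WT and 202, 182, 233 and 286 CPM in DMD, and DIFF libraries 167, 112, 151 and 114 CPM in WT and 86.8, 47.8, 35.99 and 62.6 CPM in DMD. Its DMD libraries lay below all WT libraries in each state. In all 8 animals IL33 was lower in DIFF, with a log2FC of -1.29 ± 0.16 (adjusted p = 1.14e-05) in WT and a log2FC of -1.96 ± 0.24 (adjusted p = 4.78e-05) in DMD. The genotype difference was a log2FC of -1.23 ± 0.23 (adjusted p = 0.000439) in DIFF. In PROL it was a log2FC of -0.56 ± 0.15 (adjusted p = 0.0158), past the p threshold and short of the size threshold, which it passed in 4 of 8 fits with 1 library left out. The interaction of -0.68 ± 0.31 on the log2 scale (adjusted p = 0.12) missed the threshold.

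CSF1, the growth factor of macrophages, was expressed in DMD PROL, with 13.5, 19.0, 11.6 and 19.7 CPM. WT PROL held 1.46, 1.24, 5.43 and 6.15 CPM, WT DIFF 5.50, 2.95, 5.18 and 5.44 CPM and DMD DIFF 2.80, 4.66, 1.44 and 5.69 CPM. The 4 DMD PROL libraries stood above the other 12. WT PROL held 2, 2, 10 and 8 counts, too few to pass the filter on low counts without DMD PROL. The test in PROL thus depended on the group where CSF1 is high. Between the DMD states CSF1 passed the filter through DMD PROL alone, so it had to be lower in DIFF. DMD exceeded WT in PROL with a log2FC of 2.12 ± 0.49 (adjusted p = 0.00405), and from PROL to DIFF CSF1 fell in DMD with a log2FC of -2.10 ± 0.44 (adjusted p = 0.00109), 3.46- to 8.09-fold by animal. The interaction was -2.50 ± 0.76 on the log2 scale (adjusted p = 0.0152). All 3 colony-stimulating factors together held 178 counts.

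IL6ST, or gp130, the signalling subunit shared by the receptors of IL6, IL11, LIF and oncostatin M, was lower in DMD in both states and rose with differentiation in both genotypes. PROL libraries held 215, 229.6, 361 and 229 CPM in WT and 84.9, 140.3, 122 and 131 CPM in DMD, and DIFF libraries 846, 729, 692 and 763 CPM in WT and 189, 252, 219 and 161 CPM in DMD. None of the DMD libraries reached the lowest WT library of its state. DMD against WT was a log2FC of -1.13 ± 0.19 (adjusted p = 0.000503) in PROL and a log2FC of -1.89 ± 0.13 (adjusted p = 5.77e-09) in DIFF. IL6ST was higher in DIFF in all 8 animals, with a log2FC of 1.53 ± 0.15 (adjusted p = 2.21e-06) in WT and a log2FC of 0.77 ± 0.17 (adjusted p = 0.00153) in DMD. The interaction was -0.77 ± 0.25 on the log2 scale (adjusted p = 0.0245). It was called in 9 of 16 fits with 1 library left out, where adjusted p rose to 0.0594 (without DMD PROL replicate 2), and not on library totals (-0.49, adjusted p = 0.12).

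The decoy receptor of IL1, IL1R2, which binds IL1 without signalling, was found in WT PROL, at 10.2, 6.20, 19.6 and 10.8 CPM. It reached 10 counts in these 4 libraries alone, so the rule for expressed members fixed its place there. DMD PROL held 2 counts, all in replicate 2, against 74 in WT PROL. WT DIFF held 1.38, 2.95, 2.59 and 1.36 CPM, and DMD DIFF 8 counts, all in replicate 2. No DMD PROL library reached the lowest WT PROL library. The ratio of WT to DMD in PROL was 43.3 (95% interval 11.6 to 364 from counting error, or 7.31 to 1757 with halved counts), the edgeR test gave adjusted p = 0.000296, and without DMD replicate 2 IL1R2 was at least 22.1-fold lower in DMD, or 11.1-fold with halved counts. It fell between the WT states in each of 4 animals with a log2FC of -2.48 ± 0.53 (adjusted p = 0.00124). The interaction of 4.29 ± 1.56 on the log2 scale (adjusted p = 0.0415) was called in 6 of 16 fits with 1 library left out, was 0.22 (adjusted p = 0.741) without DMD DIFF replicate 2, and with the animal as a block was 4.01 (adjusted p = 0.0757).

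IL13RA1, a receptor chain for IL4 and IL13, held 20.4, 12.4, 54.3 and 33.9 CPM in WT PROL and 9.84, 13.9, 15.1 and 14.4 CPM in DMD PROL. In DIFF it held 34.4, 14.7, 44.0 and 31.3 CPM in WT and 9.80, 17.5, 17.3 and 8.54 CPM in DMD. WT replicate 2 was low in both states and overlapped the DMD libraries. DMD was lower with a log2FC of -1.20 ± 0.39 (adjusted p = 0.0347) in PROL and with a log2FC of -1.23 ± 0.36 (adjusted p = 0.01) in DIFF. The PROL call stood in only 2 of 8 fits with a library left out, where adjusted p reached 0.178 without WT replicate 3, and was lost on the second technical column (-0.95, adjusted p = 0.148). The DIFF call was lost on the first technical column (-0.70, adjusted p = 0.338). Neither state comparison was called, with a log2FC of 0.02 ± 0.43 (adjusted p = 0.975) in WT and a log2FC of -0.01 ± 0.35 (adjusted p = 0.988) in DMD, values near 0 whose sign changed under other settings, library totals among them in WT.

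IL27RA, the receptor chain for IL27, had its highest level in WT PROL. WT PROL held 215, 153, 307 and 198 CPM, and DMD PROL 134, 169, 142 and 131 CPM. WT DIFF held 146, 138, 115 and 131 CPM and DMD DIFF 99.4, 135, 105 and 104 CPM. WT PROL replicate 3 was the highest of all 16, and the genotypes overlapped in both states. In PROL, DMD was lower with a log2FC of -0.61 ± 0.18 (adjusted p = 0.0208), a call kept in 4 of 8 fits with a library left out and at -0.40 (adjusted p = 0.0547) without WT replicate 3. In DIFF it gave a log2FC of -0.26 ± 0.14 (adjusted p = 0.144). Between the WT states it fell with a log2FC of -0.74 ± 0.18 (adjusted p = 0.00353), and by 0.53 on the log2 scale without WT PROL replicate 3, short of the size threshold. DMD gave a log2FC of -0.39 ± 0.14 (adjusted p = 0.0365).

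**Figure D3:**
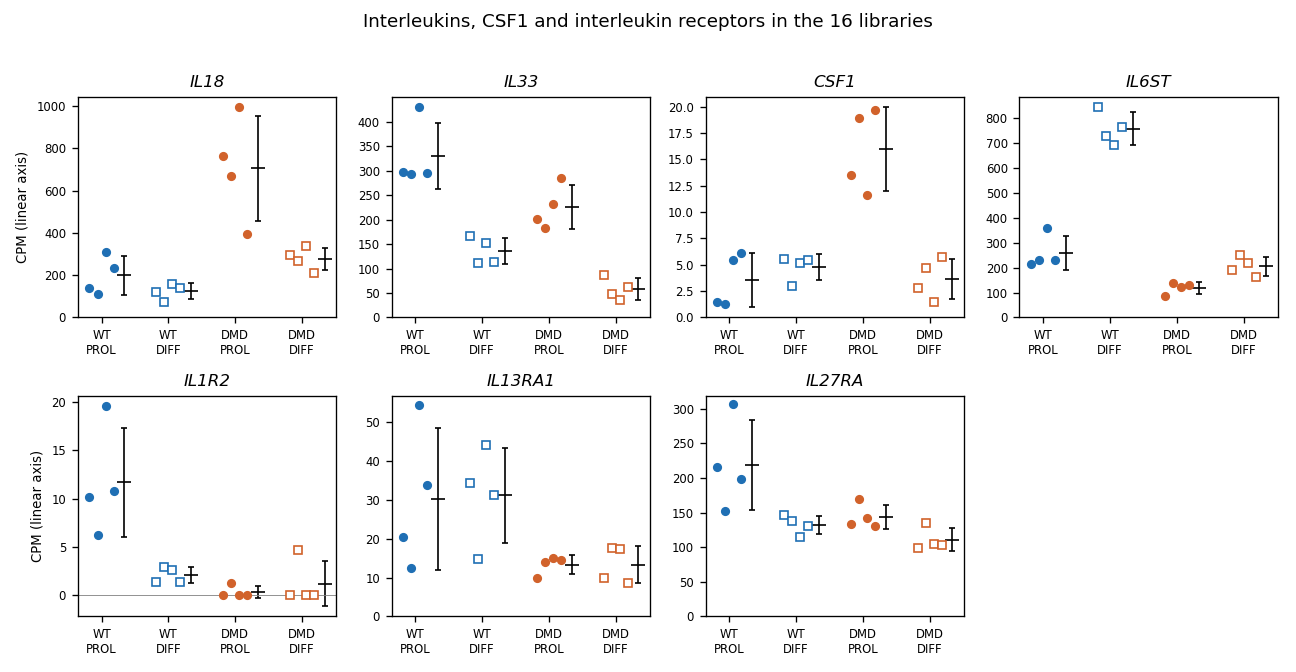
CPM (y axes, linear) of IL18, IL33, CSF1, IL6ST, IL1R2, IL13RA1 and IL27RA in the 4 groups (x axes), drawn as for the chemokines. IL18 and CSF1 are highest in DMD PROL, IL6ST in WT DIFF, and IL33, IL1R2 and IL27RA in WT PROL.

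The partners of these genes were sparse. IL6 had 22 counts in all, 12 in WT PROL, 2 in WT DIFF, none in DMD PROL and 8 in DMD DIFF. WT PROL replicate 4 had none either, so the genotypes met at 0. With 3 counts in place of the 0 of DMD PROL, IL6 was 4.68-fold lower in DMD, or 2.34-fold with halved counts. That ratio puts no error on the WT counts. IL6 was not called in PROL by edgeR without the filter on low counts (a log2FC of -4.61, adjusted p = 0.0659). Its receptor IL6R had 14 counts and LIF 2. IL4R, the partner chain of IL13RA1, had 40 counts, IL13 had 2 and IL4 none. IL1A, a ligand of IL1R2, had 20 counts, while IL1B1 and IL1B2 had none. IL18R1, IL1RL1 and CSF1R, the receptors of IL18, IL33 and CSF1, and IL27, OSM and LIFR are not analysed here.

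Of the 5 TNF superfamily ligands, TNFSF10 and TNFSF13B were expressed, and both were highest in differentiating WT SCs. Both reached 10 counts in the 4 WT DIFF libraries alone, so the rule for expressed members fixed that place. TNF and TNFSF4 had no count, and TNFSF15 had 30 counts in WT PROL, 2 in DMD PROL and 16 in each of WT DIFF and DMD DIFF. TNFSF10, or TRAIL, a ligand of death receptors, held 56.4, 45.6, 40.1 and 53.1 CPM in WT DIFF and 1.40, 3.50, 2.88 and 4.27 CPM in DMD DIFF. WT PROL had 2 counts in total, and DMD PROL held 0, 1.26, 2.33 and 1.31 CPM. The WT DIFF libraries stood above all others. From PROL to DIFF the summed WT counts rose 116-fold (95% interval 31.8 to 963 from counting error, or 20.5 to 4618 with halved counts), with adjusted p = 7.48e-08 in the edgeR test, and at least 60.1-fold (30.05-fold with halved counts) without WT PROL replicate 1. In DIFF, DMD was lower with a log2FC of -3.98 ± 0.34 (adjusted p = 7.06e-08). The interaction of -5.66 ± 1.12 on the log2 scale (adjusted p = 0.00046) rests on the 2 counts of WT PROL and was -7.99 without that library.

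TNFSF13B, or BAFF, a survival factor of B cells, held 19.3, 20.6, 27.2 and 9.53 CPM in WT DIFF. WT PROL held 0, 2.48, 3.26 and 0 CPM, DMD PROL 1.23, 3.79, 0 and 0 CPM and DMD DIFF 4.20, 0, 0 and 0 CPM. Again WT DIFF lay above the 12 other libraries. It rose in WT with a log2FC of 3.51 ± 0.64 (adjusted p = 0.000338), and by 4.23 without WT PROL replicate 3. In DIFF, DMD was lower with a log2FC of -4.13 ± 0.76 (adjusted p = 0.000291), and at least 26.5-fold lower (13.2-fold with halved counts) without DMD DIFF replicate 1, the 1 DMD DIFF library with counts. The interaction of -3.80 ± 1.59 on the log2 scale (adjusted p = 0.0793) missed the threshold.

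TNFAIP8, a TNF-induced inhibitor of apoptosis, overlapped between genotypes in PROL and rose more in WT. PROL libraries held 16.0, 7.45, 20.6 and 16.9 CPM in WT and 14.8, 17.7, 16.3 and 26.2 CPM in DMD, with a log2FC of 0.28 ± 0.34 (adjusted p = 0.6). DIFF libraries held 183, 159, 195 and 128 CPM in WT and 29.4, 47.8, 34.5 and 25.6 CPM in DMD. Each WT DIFF library was above each DMD DIFF library, with a log2FC of -2.27 ± 0.20 (adjusted p = 1.02e-07). Every WT animal had 7.56- to 21.4-fold more in DIFF, which gave a log2FC of 3.42 ± 0.24 (adjusted p = 2.82e-08). In DMD 3 of 4 animals had more, with a log2FC of 0.87 ± 0.28 (adjusted p = 0.0172), a call lost without DMD PROL replicate 1 (0.78, adjusted p = 0.0502) or DMD DIFF replicate 2 (0.67, adjusted p = 0.0861). The interaction was -2.55 ± 0.37 on the log2 scale (adjusted p = 1.53e-05).

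The TNF receptor TNFRSF1A held 100.4, 133, 128 and 122 CPM in WT PROL and 87.3, 68.3, 92.0 and 73.5 CPM in DMD PROL. DIFF levels were 168, 206, 242 and 189 CPM in WT and 72.8, 82.8, 101 and 69.7 CPM in DMD. In both states the genotypes did not overlap. DMD was lower in DIFF with a log2FC of -1.31 ± 0.15 (adjusted p = 2.07e-06), and in PROL the difference of -0.60 ± 0.15 (adjusted p = 0.00794) lay at the size threshold without passing it. In WT it rose in each animal, 1.55- to 1.89-fold, with a log2FC of 0.72 ± 0.14 (adjusted p = 0.000597), a call lost on library totals (0.37, adjusted p = 0.0359). DMD gave a log2FC of 0.01 ± 0.16 (adjusted p = 0.966), with 2 of 4 animals on each side of no change. The interaction was -0.71 ± 0.21 on the log2 scale (adjusted p = 0.0129), and -0.43 on library totals, which ended the call. Its ligand TNF had no count in any library and LTA had 2.

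TNFRSF12A, the receptor Fn14 of the ligand TWEAK and known for its induction in injured muscle, went the other way. DMD PROL held 191, 150.4, 148 and 164 CPM and WT PROL 141, 108, 122 and 112 CPM. DMD DIFF held 132, 94.4, 109 and 125 CPM and WT DIFF 61.9, 64.8, 93.2 and 64.0 CPM. DMD libraries lay above WT libraries in both states. DMD was higher with a log2FC of 0.69 ± 0.17 (adjusted p = 0.00288) in DIFF and gave a log2FC of 0.43 ± 0.13 (adjusted p = 0.0265) in PROL, short of the size threshold. It was lower in DIFF in all 8 animals, called in WT with a log2FC of -0.78 ± 0.16 (adjusted p = 0.00105) and not in DMD with a log2FC of -0.52 ± 0.14 (adjusted p = 0.00687). The interaction was 0.26 ± 0.21 on the log2 scale (adjusted p = 0.399).

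**Figure D4:**
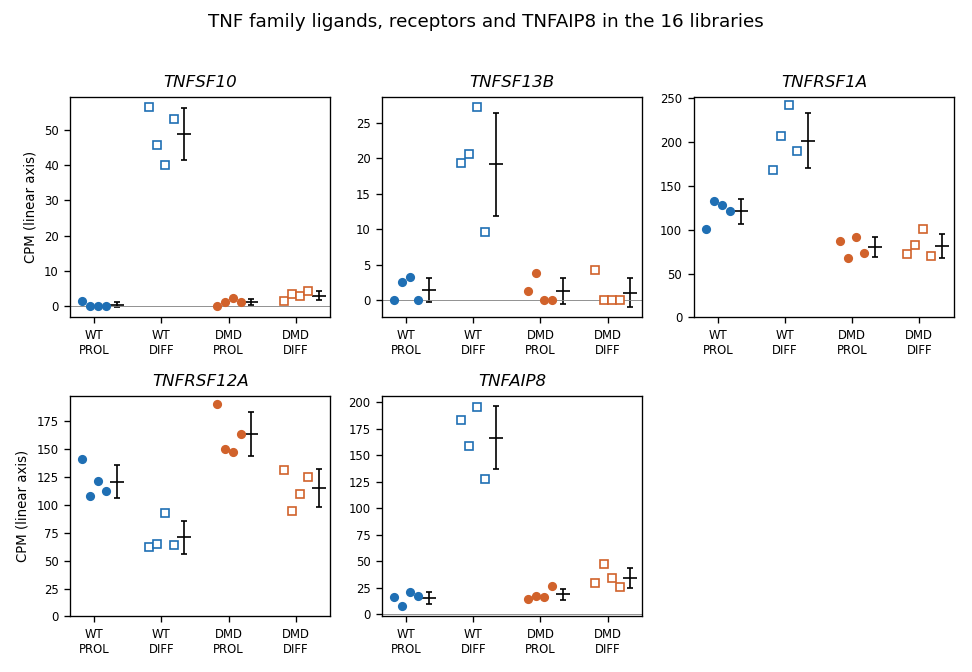
CPM (y axes, linear) of TNFSF10, TNFSF13B, TNFRSF1A, TNFRSF12A and TNFAIP8 in the 4 groups (x axes), drawn as for the chemokines. All but TNFRSF12A are highest in WT DIFF, and TNFRSF12A is highest in DMD PROL.

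**Figure D5:**
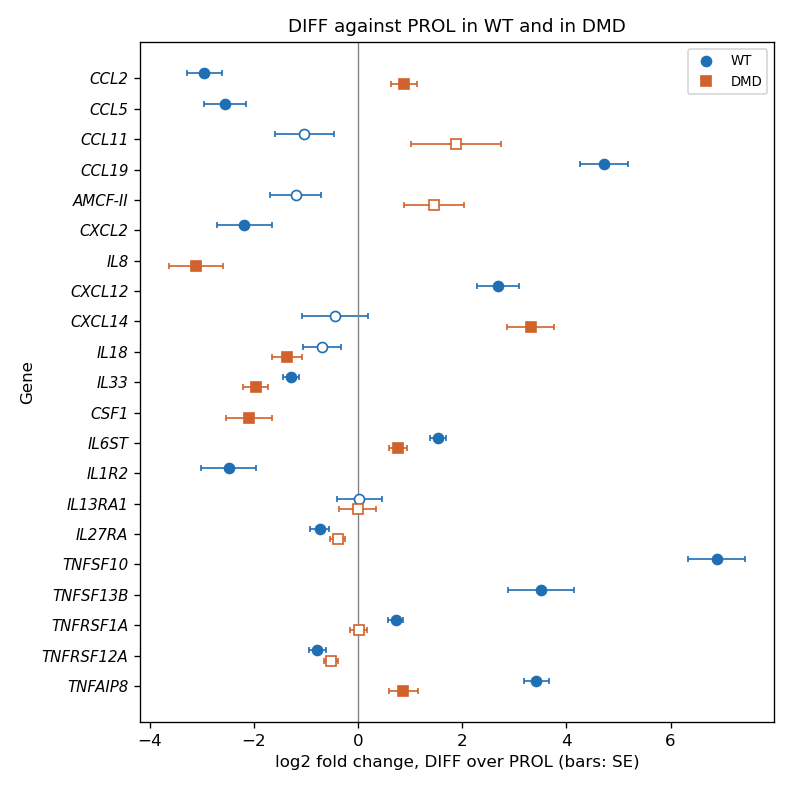
Log2 fold change of DIFF over PROL (x axis, bars are the SE) of each expressed member (y axis) in WT (circles) and DMD (squares), with filled symbols for called genes and no symbol where a gene was not tested. CCL2 fell in WT at -2.95 and rose in DMD at 0.89, and IL33 fell in both.

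The 7 members that rose in WT DIFF over WT PROL came from several roles, with log2FC of 4.72 for CCL19, 2.68 for CXCL12, 1.53 for IL6ST, 3.51 for TNFSF13B, 0.72 for TNFRSF1A and 3.42 for TNFAIP8, and a 116-fold ratio of counts for TNFSF10. In DIFF the log2FC of DMD against WT were -4.24 for CCL19, -4.73 for CXCL12, -1.89 for IL6ST, -4.13 for TNFSF13B, -1.31 for TNFRSF1A, -2.27 for TNFAIP8 and -3.98 for TNFSF10. Both comparisons use the WT DIFF libraries, so neither is independent of the other. CCL19, TNFSF13B and TNFSF10 counted as expressed through WT DIFF alone and had to be high there. CXCL12 passed the filter on low counts in DIFF through WT DIFF alone and had to be lower in DMD in that comparison.

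Unexpressed members that reached 10 counts in any library were TNFSF15 and IL16. TNFSF15, a TNF ligand of endothelial cells, had 2, 10, 12 and 6 counts in WT PROL and 2, 0, 0 and 0 in DMD PROL. Its counts in PROL were 17.6-fold higher in WT (95% interval 4.46 to 152 from counting error, or 2.703 to 739.5 with halved counts), with adjusted p = 0.0217 by edgeR without the filter on low counts. In DIFF each genotype had 16 counts of TNFSF15, with adjusted p = 0.999 in that fit. IL16, an attractant of CD4+ cells, had 4, 10, 6 and 14 counts in WT DIFF and 0, 2, 2 and 0 in DMD DIFF, with a log2FC of -2.98 (adjusted p = 0.0159) in the same unfiltered fit. TNFSF15 libraries of both genotypes met at 2 counts in PROL, and those of IL16 did not overlap in DIFF.

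Genes of the same pathways were taken as lists and described by counts, with the log2FC in parentheses. Of 45 NF-kB pathway genes listed, 14 are in the table and 8 were tested. In PROL 1 was called in DMD against WT, TRAF6 (1.42 ± 0.49, adjusted p = 0.0438), an adaptor of IL1 receptors, and in DIFF 1, NFKBIA (-1.14 ± 0.21, adjusted p = 0.000424), an inhibitor of NF-kB that is also its target. Over all genes 18.2% were called in PROL and 33.6% in DIFF, and neither count of 1 in 8 exceeds that share. NFKBIA stood at 146 ± 32.1 CPM in WT DIFF and 66.4 ± 21.7 CPM in DMD DIFF. The median of the 8 was 0.12 in PROL and -0.18 in DIFF, against -0.00 and -0.03 over all genes tested. Between states, NFKBIA (1.22) and IRAK4 (0.67) of the 8 rose and none fell in WT, and in DMD TNIP1 (1.31) rose and TAB1 (-0.71) fell. Of 33 JAK-STAT genes, 18 are in the table and 12 were tested, of which 2 were called lower in PROL and 4 in DIFF and none higher, close to the share of all genes called in either direction (18.2% and 33.6%). JAK1 (-0.69 ± 0.12, adjusted p = 0.000611), the kinase that binds gp130, and STAT3 (-1.61 ± 0.41, adjusted p = 0.00807), its main target, were those in PROL. SOCS5 (-2.67 ± 0.53, adjusted p = 0.000568), STAT3 (-1.16), TYK2 (-0.63) and STAT2 (-1.03) were those in DIFF. The medians of the 12 were -0.39 and -0.37. JAK1 rose with differentiation in both genotypes, with 0.75 ± 0.09, adjusted p = 6.21e-06 in WT and 1.01 ± 0.13, adjusted p = 6.62e-06 in DMD, along with SOCS5 (1.96) in WT and SOCS6 (0.88) in DMD.

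Of 40 genes that cytokines induce, 27 are in the table. In PROL 5 of 10 tested were called lower in DMD and none higher, and in DIFF 8 lower and 1 higher of 10, against 9.87% of all genes lower in PROL and 17.5% lower and 16.1% higher in DIFF, with medians of -1.32 and -1.36. In PROL the 4 with the smallest p were VCAM1 (-3.52 ± 0.25, adjusted p = 1.86e-07), which holds leukocytes to cells, the pentraxin PTX3 (-2.23), the plasminogen activator PLAU (-0.96) and PTGES (-2.41), an enzyme of prostaglandin synthesis. VCAM1 stood at 194 ± 68.4 CPM in WT PROL, 17.1 ± 3.33 CPM in DMD PROL, 488 ± 81.8 CPM in WT DIFF and 25.5 ± 16.7 CPM in DMD DIFF. In DIFF those with the smallest p were PLAU (-0.74 ± 0.09, adjusted p = 3.31e-06), ceruloplasmin CP (-4.16), complement factor CFB (-2.84) and, as the 1 gene higher in DMD, tissue factor F3 (2.23, from 21.7 ± 9.78 CPM in WT to 101 ± 26.4 CPM in DMD). From PROL to DIFF, 6 of 12 rose and 3 fell in WT (17.9% and 14.3% of all genes), and 5 of 10 rose and 1 fell in DMD (16.0% and 12.4%), with PTX3 (4.08 in WT and 4.78 in DMD) among those that rose in both.

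Among 61 listed cytokine and receptor genes with other names, 27 are in the table and 9 were tested in each genotype comparison. In PROL the TNF ligand CD70 (-0.66 ± 0.16, adjusted p = 0.00605) and the stem cell factor KITLG (-0.65) were called lower in DMD and none higher, near the 18.2% of all genes called. In DIFF 3 were lower, CD70 (-2.39), the receptor KIT (-2.82) and KITLG (-1.34), and 2 higher, the death receptor FAS, at 43.7 ± 11.5 CPM in WT and 76.9 ± 25.6 CPM in DMD, and SPP1 (5.26 ± 0.77, adjusted p = 0.000876), or osteopontin, an adhesive cytokine of injured muscle. SPP1 stood at 4.12 ± 2.23 CPM in WT DIFF and 162 ± 119.8 CPM in DMD DIFF. The 5 of 9 called in DIFF stand against 33.6% of all genes, and medians were -0.23 in PROL and -0.03 in DIFF. Between states CD70 fell in WT (-1.22) and in DMD (-2.95).

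Cell type markers also differed between the genotypes (log2FC in parentheses). Myogenic DES (4.03), MEF2C (3.46), MYL1 (4.58) and MYLPF (4.95) were higher in DMD in PROL, and MYLPF (2.51), DES (2.92), ITGB1 (1.16) and ACTA1 (1.76) in DIFF. Fibroblast DCN (-2.90), MFAP5 (-1.89), COL3A1 (-1.06) and COL1A2 (-0.64) were lower in DMD in PROL, and DCN (-4.23), POSTN (-5.93), COL3A1 (-1.63) and FBN1 (-0.89) in DIFF. COL1A2 was not lower in DIFF, at 7909 ± 692 CPM in WT and 9100 ± 1122 CPM in DMD. Its interaction was 0.84 ± 0.14 on the log2 scale (adjusted p = 5.53e-05 by edgeR). Endothelial ERG (-2.46), ENG (-2.62) and PECAM1 (-3.37) were lower in PROL and PECAM1 (-2.01) and ERG (-0.89) in DIFF. The erythroid marker HBB had no count. The leukocyte marker CD14, which other cells express too, was lower in DMD in both states (-0.71 and -1.40). The fibroblast, endothelial and leukocyte markers called lower in DMD moved in the direction of the members that are lower in DMD. The myogenic markers named here moved in the other direction. The part of any of these markers in the members' differences was not tested.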

How the data were processed

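Per the study's methods, polyA+ RNA (25 ng of total RNA, technical duplicates) was made into 3′ libraries with UMIs, deduplicated with UMI-tools, mapped to susScr3, a pig genome build, by STAR 2.7.10b and counted per gene (GeneCounts mode). Annotation and strand setting are not given in the sources used here. The deposited values are raw counts per gene in 32 columns, 2 per sample, which were added. All 124000 values are even, which the sources do not explain, so counting intervals are also given with halved counts. Counting intervals and limits cover counting error alone.

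Tests used edgeR 4.0.16 in R 4.3.3 (filterByExpr with a minimum count of 10, TMM, robust quasi-likelihood fit, Benjamini-Hochberg adjustment over all genes tested), on 8 libraries per comparison and all 16 for the interaction, and were tested on simulated data. The SE is the absolute log2 fold change divided by the square root of F. States of an animal are paired by label: deviations from group means correlated by 0.0998 to 0.172, best with the own animal in 8 of 8. WT and DMD replicates share only numbers (-0.0274 to 0.0993). Named genes are all expressed members, unexpressed ones with 10 or more counts in a sample, and, of each gene list and marker list, the called genes with the 4 smallest p in PROL and DIFF. Ligands and receptors paired with expressed members, and genes of the lists in other comparisons, were added after values were seen. The members and lists were chosen with earlier results of these data known. Of 81 names, 78 are current RefSeq symbols, 2 older and 1 matched none. Alternatives were DESeq2 1.42.0, library totals, no RN18S, other count filters, halved counts, single technical columns, the replicate block, 1 fit of all libraries and each library left out. Members not named in the text enter its counts and totals.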

Additional observations from a re-analysis of the deposited data

Results flagged for a closer look

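In 84 groups of 4 values (21 members in 4 groups), 15 had 1 library apart from the other 3 by a gap beyond Dixon's 95% critical share of the group's range, where chance gives about 4.2. The gap as a share of the range was 1.00 for TNFSF10 in WT PROL, TNFSF13B in DMD DIFF, CCL19 in DMD PROL, IL8 in WT DIFF and IL1R2 in DMD PROL and DMD DIFF, 6 groups with counts in a single library. It was 0.908 for TNFRSF12A in WT DIFF, where replicate 3 was high, 0.846 for AMCF-II in WT DIFF (replicate 1 high) and 0.918 for AMCF-II in DMD PROL (replicate 3 high). CCL11 in DMD DIFF gave 0.840 (replicate 3 low), CXCL2 in DMD DIFF 0.856 (replicate 2 low, within 2.33 to 2.88 CPM), CSF1 in WT DIFF 0.872 (replicate 2 low), IL33 in WT PROL 0.960 and IL6ST in WT PROL 0.902 (replicate 3 high in both), and IL27RA in DMD DIFF 0.842 (replicate 2 high).

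For 11 members the change from PROL to DIFF differed between genotypes by the interaction test (edgeR). It was more positive in DMD for CCL2 (3.84), CXCL14 (3.75), CCL5 (3.32), AMCF-II (2.65) and IL1R2 (4.29), and more negative for TNFSF10 (-5.66), CXCL12 (-3.83), TNFAIP8 (-2.55), CSF1 (-2.50), IL6ST (-0.77) and TNFRSF1A (-0.71). The values of TNFSF10 and IL1R2 rest on groups with 2 counts. Both genes counted as expressed through a single group, and the interaction was not recounted without such genes.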

How the results depend on the processing

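Of 57 called results of members, 43 kept their direction and call under all alternatives in which they were tested. Of 1064 values of these results under 26 settings, 1002 kept the call, 62 lost it and 0 changed direction. Settings in which a gene did not pass the filter on low counts gave no value and were left out of these numbers. CSF1 in PROL, for example, had no value with halved counts. Between the DMD states, members called lower went from 4 to 2 with halved counts. The number of genes called stayed within 1.5 times in each comparison. Changes of sign arose in results that were not called, most of them near 0. Under library totals IL8 in PROL went from 0.07 to -0.08, IL13RA1 between the WT states from 0.02 to -0.32 and in the interaction from -0.03 to 0.24, and TNFRSF1A between the DMD states from 0.01 to -0.06. The first technical column alone gave -0.42 for IL13RA1 between the WT states, 0.75 in its interaction and -0.19 for TNFRSF1A between the DMD states, and the second gave -0.10 for the interaction of IL8 (2.64 otherwise). TNFRSF1A between the DMD states was -0.00 with DESeq2 and -0.01 at a minimum count of 30, and IL13RA1 there was 0.00 with halved counts and with all 16 libraries in 1 fit (-0.01 otherwise). The cause was not tested.

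With 1 library left out, values ran from -0.33 to 0.41 for IL8 in PROL, -0.49 to 0.38 for CCL5 in DIFF, -0.24 to 0.48 for IL13RA1 between the WT states and -0.17 to 0.16 between the DMD states, -0.10 to 0.09 for TNFRSF1A between the DMD states, and, in the interaction, -2.86 to 0.13 for CCL19 and -0.50 to 0.23 for IL13RA1.

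The replicate block, a pairing by animal between states and by number alone between genotypes, was tried throughout. Between genotypes, where numbers pair nothing, it turned CCL5 in DIFF from 0.05 to -0.02, ended the calls of IL13RA1 (-1.06, adjusted p = 0.052) and IL27RA (-0.58, adjusted p = 0.0408) in PROL and of CXCL14 in DIFF (2.17, adjusted p = 0.0635), and added CXCL14 (-1.63, adjusted p = 0.0288) and CCL11 (-2.60, adjusted p = 0.0283) in PROL. In PROL it called 150 genes higher and 176 lower, against 160 and 189. Between states and in the interaction the block changed no call of a member beyond those of AMCF-II, IL18, IL8 and IL1R2 given with the results. Single technical columns also ended the calls of IL27RA in PROL (-0.43, adjusted p = 0.151) and between the WT states (-0.60, at the size threshold), of TNFAIP8 between the DMD states (0.60, adjusted p = 0.307) and, in the interaction, of CCL5 (adjusted p = 0.0723), IL6ST (-0.79, adjusted p = 0.0635) and TNFRSF1A (-0.56, adjusted p = 0.155). Members at a few counts per library are limited by depth.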

Other observations

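In WT PROL, replicates 1 and 3 were the highest pair for 8 of 21 expressed members (AMCF-II, CCL2, CXCL14, CXCL2, IL8, IL33, IL27RA and TNFRSF12A), and for 17.0% of all genes tested. Replicates 3 and 4 were the highest pair for 8 of 21 as well, and for 18.9% of all genes. Replicate 3 alone was highest for 12 of 21, and for 28.8% of all genes. In DMD PROL, replicate 3 was highest for 8 of 21, among them AMCF-II, CXCL2, IL8, CXCL14 and IL18, and for 26.4% of all genes. These pairs and members were picked out after their values were seen.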
